A study of Mus musculus with 6 samples.

Results

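A set of 9 genes of epithelial sodium absorption was described: the channel subunit genes Scnn1a, Scnn1b and Scnn1g, and the genes Nr3c2, Hsd11b2, Sgk1, Nedd4l, Prss8 and Atp1b1 of its aldosterone-dependent control. They were chosen by name for their place in the pathway, and all 9 were among the 21374 genes of the table. RNA sequencing compared colon of male C57BL/6 mice in 2 genotype groups, labelled wild type and Otud1-/-, with 3 libraries each. Every mouse had received azoxymethane, a colon carcinogen, on day 0 at the age of 6 weeks. Dextran sulfate sodium, a cause of colitis, was then given at 1.5% for 4 days and replaced by water for 14 days, in 3 rounds. On day 81 the mice were 18 weeks old. RNA came from distal colon beside tumours that had been cut away, and no library analysed here is from untreated colon. The labels give neither the deleted part of Otud1 nor the animal behind each library, and the p-values therefore cover library-to-library spread, which may be technical.

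In distal colon, surface epithelial cells take up sodium through the epithelial sodium channel, a heteromer of alpha, beta and gamma subunits encoded by Scnn1a, Scnn1b and Scnn1g. Aldosterone binds the mineralocorticoid receptor (Nr3c2), which the enzyme encoded by Hsd11b2 shields from glucocorticoids. The kinase SGK1 then restrains the ubiquitin ligase NEDD4-2 (Nedd4l), which otherwise removes the channel from the membrane. Prostasin, the product of Prss8, favours cleavage of the channel, and the sodium pump, whose beta subunit is encoded by Atp1b1, moves the sodium out on the basolateral side. In the rodent distal colon, aldosterone is best known for inducing the beta and gamma subunits.

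The libraries held 15300937 to 19406407 reads assigned to genes. Otud1 was more abundant in the libraries labelled Otud1-/- (141, 149.6 and 208 normalised reads) than in those labelled wild type (111, 45.1 and 48.9), against the labels. Its change did not pass the test (limma, adjusted p = 0.0934), and all directions here are those between libraries as labelled. Wild type 1 and Otud1-/- 1 lay at the ends of the first principal component (38.8% of the variance), at -86.5 and 83.3, while the other 4 libraries lay between -25.8 and 28.2. The tissue carried its epithelial markers: Epcam had 29230.1 to 42135 normalised reads. Of the 14 epithelium markers, 7 were lower in every Otud1-/- library, beside 13.3% of all tested genes, and 0 of the 14 were called. Of 5 squamous epithelium markers, Krt5 had at most 10.3 normalised reads, while Krt14 and Krt13 reached 1119 and 409 in Otud1-/- 1. Smooth muscle markers summed to 33594 to 37099 in wild type and 56119 to 116998 in Otud1-/-. Because the tissue is bulk, fewer cells of a type and less RNA per cell cannot be told apart.

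No member passed the test between genotypes. Nr3c2 and Atp1b1 stood closest to the threshold and were lower in each library labelled Otud1-/-. The channel subunits differed more among the 3 Otud1-/- libraries than between the genotypes. With limma, 0 of 9 members were called at an adjusted p under 0.05, where 0.949% of the 21281 tested genes were called. At an unadjusted p under 0.05 there were 2, both lower, beside 19.5% of all tested genes. edgeR on reads recovered from the table called 0 of 9 and 0.37% of its genes (2 of 9 and 22.6% at an unadjusted p under 0.05), and DESeq2 called 2, where it called 8.4% of genes. All 9 estimates were negative with limma, with a median log2 change of -0.37 against 0.02 over all tested genes and -0.44 over the 14 epithelium markers. With edgeR and DESeq2 the estimates were positive for Scnn1b (0.32 and 0.30) and Scnn1g (0.79 and 0.765). With limma the sign turned for Sgk1 and Nedd4l after scaling to total reads or by quantiles, and for Sgk1, Nedd4l and Prss8 after scaling to epithelial markers. In 2 of the 9 the genotypes did not overlap, against 26.3% of tested genes (13.3% lower and 13% higher in Otud1-/-).

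**Figure D1:**
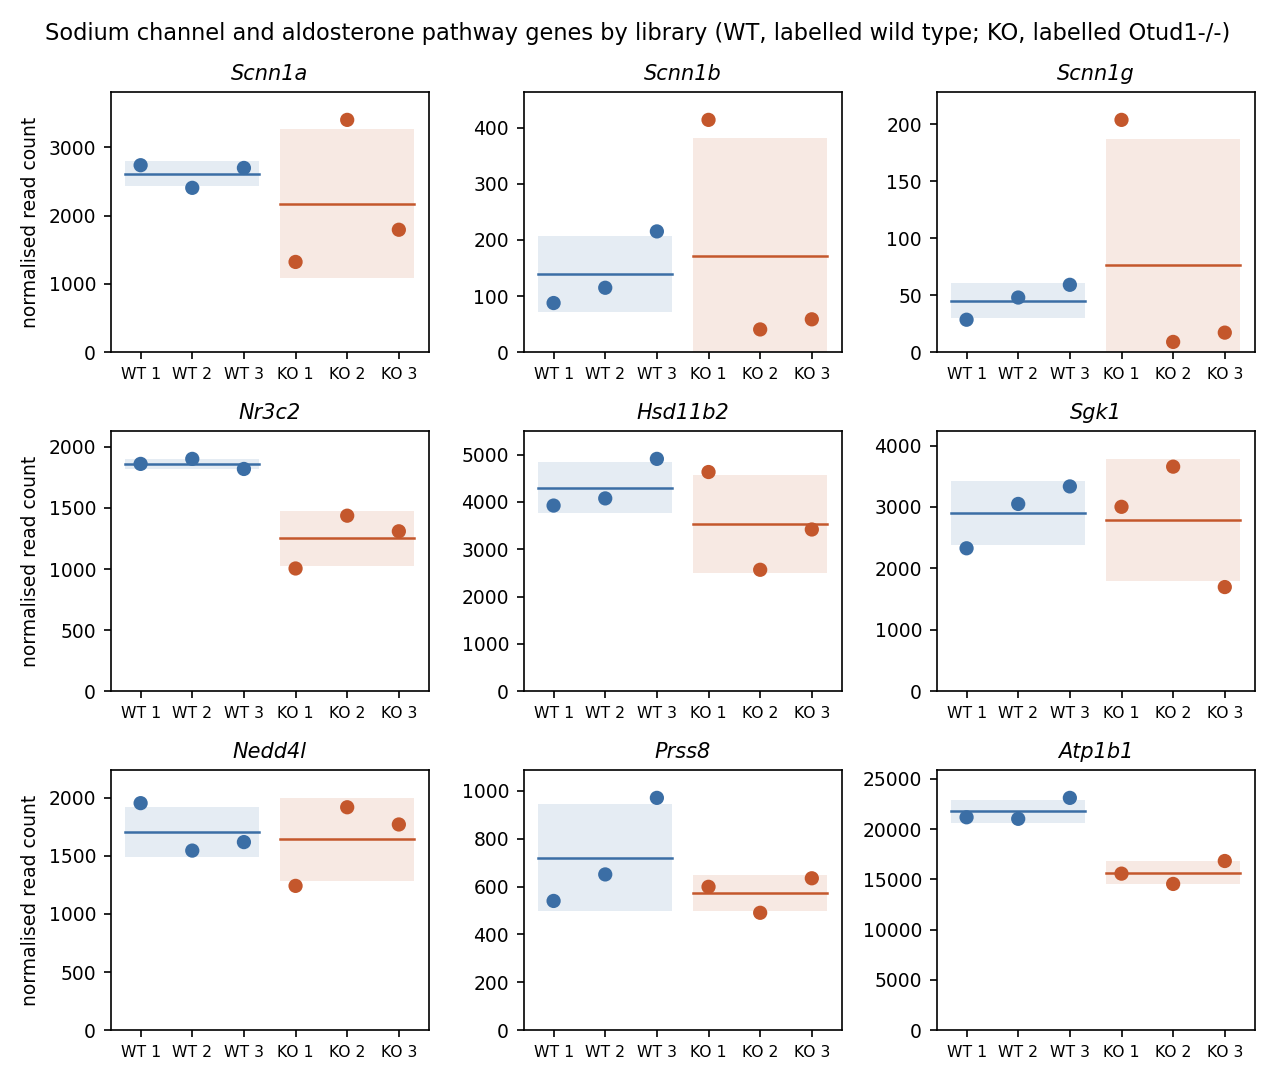
Normalised read counts (y axis, each panel from 0) of the 9 genes in the 3 libraries labelled wild type (WT, blue) and the 3 labelled Otud1-/- (KO, orange); points are libraries, lines are group means and bands are ± 1 SD, drawn no lower than 0. Nr3c2 and Atp1b1 show no overlap between the groups, while Otud1-/- 1 lies highest for Scnn1b (414) and Scnn1g (204) and lowest for Scnn1a (1321).

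The alpha subunit gene Scnn1a (ENSMUSG00000030340.16, chromosome 6, 125320659 to 125344943, plus strand, GRCm38) was even in wild type and scattered in Otud1-/-. Its normalised read counts, in the order of the replicate numbers, were 2737, 2406 and 2697 for wild type. Those for Otud1-/- were 1321, 3401 and 1792. The wild type values lay between the highest and the lowest Otud1-/- library, so the groups overlapped. Means were 2613 ± 181 (SD, n = 3) and 2171 ± 1091 (SD, n = 3), a log2 change of -0.38 ± 0.33 SE with a 95% interval of -1.18 to 0.42 (limma, adjusted p = 0.573). Single Otud1-/- libraries moved the estimate both ways. Without Otud1-/- 1 the change was -0.0796 (limma, adjusted p = 0.923), and without both wild type 1 and Otud1-/- 1 it was -0.0451 (limma, adjusted p = 0.975). Without Otud1-/- 2 it was -0.76 and Scnn1a passed (limma, adjusted p = 0.0483, within a range of 0.0483 to 0.975 over all alternatives).

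Scnn1g and Scnn1b, which encode the gamma and beta subunits, are neighbours on chromosome 7. Scnn1g (ENSMUSG00000000216.8) spans 121734479 to 121768475 and Scnn1b (ENSMUSG00000030873.9) 121865038 to 121918514, both on the plus strand, with 96562 bp between them. Scnn1b had 87.5, 115 and 215 normalised reads in wild type and 414, 40.5 and 58.5 in Otud1-/-. Scnn1g had 28.5, 48.0 and 59.1 in wild type and 204, 9.0 and 17.2 in Otud1-/-. For both genes the libraries fell in the same order, with Otud1-/- 1 highest, then wild type 3, 2 and 1, then Otud1-/- 3 and 2. The low values rest on few reads: Scnn1g had 8 reads in Otud1-/- 2, with an exact Poisson 95% interval of 3.89 to 17.7 normalised reads, against 239 reads and an interval of 179 to 232 in Otud1-/- 1. These intervals cover counting error only.

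Between genotypes the 2 genes did not pass, and their means and log2 changes differed in sign. Scnn1b averaged 139 ± 67.2 (SD, n = 3) in wild type and 171 ± 211 (SD, n = 3) in Otud1-/-, while its log2 change was -0.37 ± 0.95 SE with a 95% interval of -2.74 to 2.0 (limma, adjusted p = 0.871). Scnn1g averaged 45.2 ± 15.5 (SD, n = 3) against 76.7 ± 110.3 (SD, n = 3), with a log2 change of -0.41 ± 1.16 SE and an interval of -3.30 to 2.48 (limma, adjusted p = 0.886). Within Otud1-/- the highest library exceeded the lowest 22.7-fold for Scnn1g and 10.2-fold for Scnn1b. The comparison was with 14998 tested genes that had a mean of at least 20 and reads in every library, not matched for level. The median of these genes spanned 1.34-fold. A span at least as wide was held by 15 of these genes for Scnn1g and 55 for Scnn1b, the gene itself included. Genes without reads in some library were not counted. Single libraries set the size and the sign of both estimates. Without Otud1-/- 2 the changes were 0.27 for Scnn1b and 0.46 for Scnn1g, and without Otud1-/- 3 they were 0.0094 and 0.032. Without wild type 3 they were -0.0058 and -0.19, and without wild type 1 they were -0.65 and -0.70. Without Otud1-/- 1 they were -1.39 and -1.72 (limma, adjusted p = 0.121 and 0.0999). Omission of the pair of libraries at the ends of the first component gave -1.67 and -2.01, and both genes passed as lower (limma, adjusted p = 0.0329 and 0.0426, within ranges over all alternatives of 0.0329 to 0.999 and 0.0426 to 0.995). With edgeR and DESeq2 on the recovered reads the changes were positive, 0.32 and 0.30 for Scnn1b and 0.79 and 0.765 for Scnn1g.

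Because the 2 neighbouring genes had the same order across libraries, the 250 bases before each annotated start are shown (RefSeq, GRCm38.p6, 5′ to 3′ on the plus strand, at chr7:121864788-121865037 and chr7:121734229-121734478). They were searched for the half-site of the steroid hormone response element, the sequence bound by the mineralocorticoid and glucocorticoid receptors.
Scnn1b: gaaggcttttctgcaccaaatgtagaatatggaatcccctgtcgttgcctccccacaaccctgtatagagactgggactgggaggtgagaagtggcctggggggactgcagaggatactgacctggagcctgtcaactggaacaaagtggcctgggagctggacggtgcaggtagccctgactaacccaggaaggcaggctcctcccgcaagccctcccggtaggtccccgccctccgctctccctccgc
Scnn1g: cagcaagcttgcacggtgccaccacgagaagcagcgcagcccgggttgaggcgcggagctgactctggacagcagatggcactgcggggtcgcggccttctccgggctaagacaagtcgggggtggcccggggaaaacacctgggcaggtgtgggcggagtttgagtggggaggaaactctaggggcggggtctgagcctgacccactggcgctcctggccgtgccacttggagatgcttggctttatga
Neither window, nor the 50 bases after its start, holds the half-site AGAACA on either strand (TGTTCT on the strand shown), and capitals, which would mark it, are therefore absent. At least 1 half-site is found in 19.0% of the 32851 RefSeq promoter windows of the same length (300 bases). The absence says only that these letters are not in these windows.

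Over the 6 libraries Scnn1b and Scnn1g were closely related, and Scnn1a was not shown to follow either. Scnn1b against Scnn1g gave a Pearson r of 0.983 (exact permutation p = 0.00139, Benjamini-Hochberg adjusted over 3 pairs 0.00417) and a Spearman rho of 1.0 (exact permutation p = 0.00278, adjusted 0.00833). The relation held without the 2 libraries farthest from the median, Otud1-/- 1 and 2 (r = 0.944). Scnn1a ran against Scnn1b with r = -0.618 (exact permutation p = 0.185, adjusted 0.185; rho = -0.60, exact permutation p = 0.242) and against Scnn1g with r = -0.689 (exact permutation p = 0.128, adjusted 0.185; rho = -0.60, exact permutation p = 0.242). Without the 2 libraries farthest from the median of Scnn1a, Otud1-/- 1 and 3, these were -0.741 and -0.901, while without Otud1-/- 1 alone they were -0.0740 and -0.189.

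Per kilobase of exon, Scnn1a was the most abundant subunit in every library. It took 93.9%, 90.7% and 86.5% of the summed reads per kilobase of the 3 subunits in wild type and 58.7%, 97.8% and 93.9% in Otud1-/-. Scnn1b took 4.71%, 6.79% and 10.8% in wild type and 28.8%, 1.83% and 4.81% in Otud1-/-. Scnn1g had the smallest share in each library, from 0.358% in Otud1-/- 2 to 12.5% in Otud1-/- 1. The ratio of alpha to gamma transcripts was 69.6, 36.3 and 33.0 in wild type and 4.69, 274 and 75.6 in Otud1-/-, so Otud1-/- 1 and 2 lay at opposite ends. The share of Scnn1a was 90.4% ± 3.71 (SD, n = 3) against 83.5% ± 21.6 (SD, n = 3), with an exact two-sided permutation p of 1, where the smallest that 3 against 3 libraries allow is 0.1. Otud1-/- 1 set the direction of all 3 shares. The difference, Otud1-/- minus wild type, was -6.93 percentage points for Scnn1a and 5.48 without that library, 4.38 and -4.12 for Scnn1b, and 2.55 and -1.36 for Scnn1g.

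**Figure D2:**
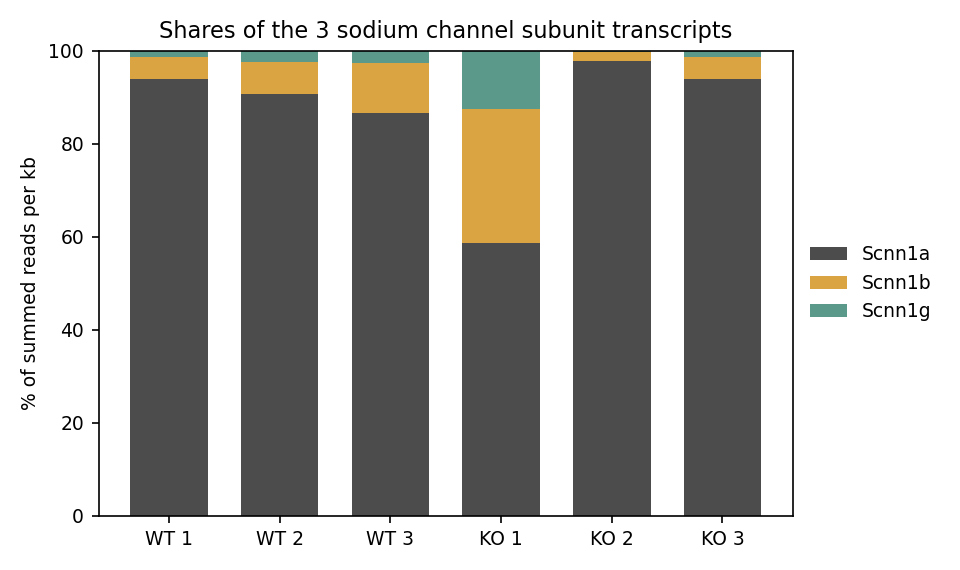
Stacked bars give each subunit's percent of the summed reads per kilobase of exon of Scnn1a, Scnn1b and Scnn1g in each library (WT, labelled wild type; KO, labelled Otud1-/-). Scnn1a fills 86.5% to 97.8% of the bar in 5 libraries and 58.7% in Otud1-/- 1.

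Across libraries, Scnn1a had the order of the mean level of surface epithelium markers. The relation did not pass after adjustment, which a single relation over 6 libraries could not do here. The surface colonocyte list (8 genes, among them Car4, Aqp8, Slc26a3 and Krt20, which mark mature absorptive cells) had its lowest mean log2 level in Otud1-/- 1 (11.9) and its highest in Otud1-/- 2 (14.2). Of the list, Car4, Slc26a3, Krt20 and Ceacam20 were highest in wild type 1, and Car1, Aqp8, Ceacam1 and Guca2a in Otud1-/- 2. Guca2a, the 1 gene with a positive log2 change (1.29), had 4210 normalised reads in wild type 1 and 21870 in Otud1-/- 2. The list means of these 2 libraries were close (13.9 and 14.2), and their order depends on the genes included. The order of the 6 libraries on the mean of this list was the order of Scnn1a (r = 0.953, exact permutation p = 0.00139, Benjamini-Hochberg adjusted over 36 relations 0.05; rho = 1.0, exact permutation p = 0.00278, adjusted 0.1). Without Otud1-/- 1 and 2, r was 0.904. Both permutation p-values are the smallest that 6 libraries allow, so after adjustment over 36 relations a single relation cannot fall below 0.05. Scnn1b gave r = -0.728 (exact permutation p = 0.0917, adjusted 0.367; rho = -0.60, exact permutation p = 0.242, adjusted 0.719), which became 0.542 without those 2 libraries and so rested on them. The 36 relations were those of the 9 members with the epithelium, surface colonocyte, crypt stem cell and squamous lists. Crypt stem cell markers, 4 measured genes with Lgr5 among them, were all higher in every Otud1-/- library, with 0 called. Over all tested genes, 13% were higher without overlap. The 4 markers summed to 410.3 to 1627 normalised reads in wild type, 2812 and 2603 in Otud1-/- 2 and 3, and 8067 in Otud1-/- 1. Squamous markers summed to 101 to 526 in wild type and 319.9 to 1635 in Otud1-/-, again highest in Otud1-/- 1, with Krt14 at 1119 there. Their part in the levels of Scnn1b and Scnn1g was not tested.

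**Figure D3:**
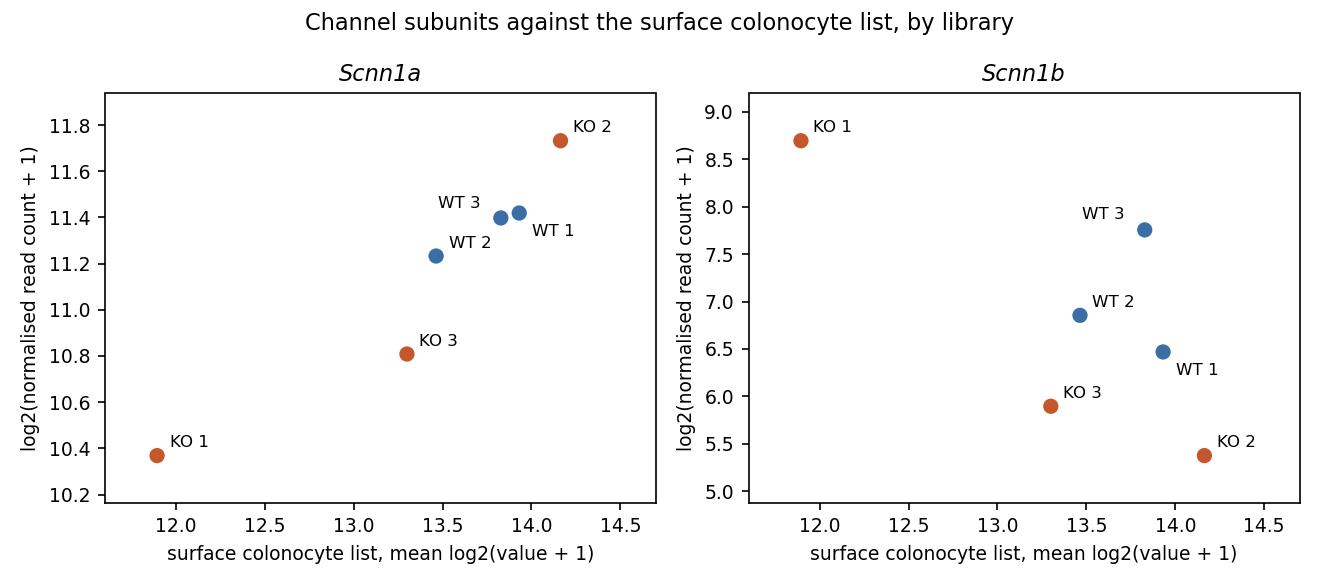
Each point is a library (blue, labelled wild type; orange, labelled Otud1-/-), with the mean log2 level of the surface colonocyte list on the x axis and log2(normalised read count + 1) of Scnn1a or Scnn1b on the y axis, each on its own scale. Scnn1a is lowest in Otud1-/- 1 and highest in Otud1-/- 2, in the order of the list mean, while Scnn1b is highest in Otud1-/- 1 and lowest in Otud1-/- 2.

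Nr3c2, the mineralocorticoid receptor gene (ENSMUSG00000031618.13, chromosome 8, 76899442 to 77245012, plus strand), had 1861, 1902 and 1819 normalised reads in wild type and 1004, 1437 and 1309 in Otud1-/-. All 3 Otud1-/- libraries were below all wild type libraries, and the wild type values lay close together. The log2 change was -0.59 ± 0.14 SE with a 95% interval of -0.91 to -0.27, and the gene missed the threshold (limma, adjusted p = 0.0808; exact two-sided permutation p = 0.1, the smallest possible). Nr3c2 passed as lower with DESeq2 (adjusted p = 0.0225), with sample weights (limma, adjusted p = 0.0423) and without Otud1-/- 2 (limma, adjusted p = 0.0481), within a range of 0.0225 to 0.415 over all alternatives. Without wild type 1 and Otud1-/- 1 the change was -0.44 and did not pass (limma, adjusted p = 0.17). Relative to the mean of the epithelium list, the difference was -0.29 and the groups overlapped (exact permutation p = 0.2, adjusted over 9 members 1). Goblet cell markers were also lower in every Otud1-/- library in 6 of 6 genes, beside 13.3% of tested genes. Of the 6, 1 was called (Fcgbp), beside 0.667% of tested genes called lower. The goblet cell markers summed to 223708 to 240425 in wild type and 84333 to 90051 in Otud1-/-, and their part in the level of Nr3c2 was not tested.

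Hsd11b2, whose enzyme inactivates corticosterone in aldosterone target cells (ENSMUSG00000031891.6, chromosome 8, 105518755 to 105523988, plus strand), had 3924, 4075 and 4911 normalised reads in wild type and 4633, 2566 and 3418 in Otud1-/-. Otud1-/- 1 lay within the wild type range, and Otud1-/- 2 was lowest. The log2 change was -0.32 ± 0.21 SE, with a 95% interval of -0.79 to 0.15 (limma, adjusted p = 0.434). It was -0.11 without Otud1-/- 2, -0.53 without Otud1-/- 1 and -0.59 without both wild type 1 and Otud1-/- 1, and did not pass in any of these (limma, adjusted p = 0.756, 0.131 and 0.13).

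Sgk1, the aldosterone-induced kinase (ENSMUSG00000019970.15, chromosome 10, 21882184 to 21999903, plus strand), had 2327, 3049 and 3334 normalised reads in wild type and 3002, 3656 and 1695 in Otud1-/-. Otud1-/- 2 was the highest and Otud1-/- 3 the lowest of all 6. The log2 change was -0.12 ± 0.29 SE, with a 95% interval of -0.81 to 0.58 (limma, adjusted p = 0.869). Sgk1 is a textbook target of corticosteroid receptors, and its promoter is shown for that reason. RefSeq lists 6 starts for the gene, and 1 window holds the complete palindromic element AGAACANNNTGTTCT, which reads the same on both strands. The 250 bases before that start, at position 21993890, are given 5′ to 3′ on the plus strand (RefSeq, GRCm38.p6, chr10:21993640-21993889), with the half-sites AGAACA and TGTTCT in capitals.
Sgk1: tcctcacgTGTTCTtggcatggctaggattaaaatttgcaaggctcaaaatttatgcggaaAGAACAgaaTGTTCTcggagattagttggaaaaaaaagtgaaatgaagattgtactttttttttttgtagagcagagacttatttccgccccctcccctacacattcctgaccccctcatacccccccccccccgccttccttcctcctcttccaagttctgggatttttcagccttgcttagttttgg
The element lies at 21993701 to 21993715, beginning 189 bases before the start, and a separate half-site stands nearer the left end. Of all 32851 windows 3 hold the complete element, or 0.00913%. The windows listed for Nr3c2 and Atp1b1 (1 each) held no half-site, and Scnn1a, Hsd11b2, Prss8 and Nedd4l were not analysed in this way. A match is a description of letters and not a measured site.

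Nedd4l, the ubiquitin ligase gene (ENSMUSG00000024589.16, chromosome 18, 64887705 to 65217828, plus strand), showed the smallest estimate of the 9. Its normalised read counts were 1953, 1545 and 1618 in wild type and 1242, 1918 and 1770.1 in Otud1-/-, with overlapping groups and Otud1-/- 1 lowest. The log2 change was -0.07 ± 0.17 SE, with a 95% interval of -0.46 to 0.32 (limma, adjusted p = 0.862). Prss8, the gene of the membrane-anchored serine protease prostasin (ENSMUSG00000030800.10, chromosome 7, 127925716 to 127930104, minus strand), had 540.1, 651 and 971 normalised reads in wild type and 599, 490.5 and 635 in Otud1-/-. The groups overlapped, and wild type 3 stood above the other 5 libraries. The log2 change was -0.29 ± 0.21 SE, with a 95% interval of -0.77 to 0.19 (limma, adjusted p = 0.49), and -0.0532 without wild type 3.

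Atp1b1, the sodium pump beta subunit gene (ENSMUSG00000026576.12, chromosome 1, 164437109 to 164458355, minus strand), had 21189, 21035 and 23121 normalised reads in wild type and 15579, 14554 and 16837 in Otud1-/-. Every Otud1-/- library lay below every wild type library. The log2 change was -0.48 ± 0.12 SE with a 95% interval of -0.75 to -0.20 (limma, adjusted p = 0.0926; exact two-sided permutation p = 0.1). It passed with DESeq2 alone (adjusted p = 0.00974, within a range of 0.00974 to 0.623 over all alternatives), and stood at -0.49 without wild type 1 and Otud1-/- 1 (limma, adjusted p = 0.236). Relative to the epithelium list the difference was -0.17, with overlapping groups (exact permutation p = 0.8, adjusted over 9 members 1). Of its exon bases 18.7% are shared with Nme7 on the opposite strand, and the strand setting of the counting is not given in the sources used here.

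**Figure D4:**
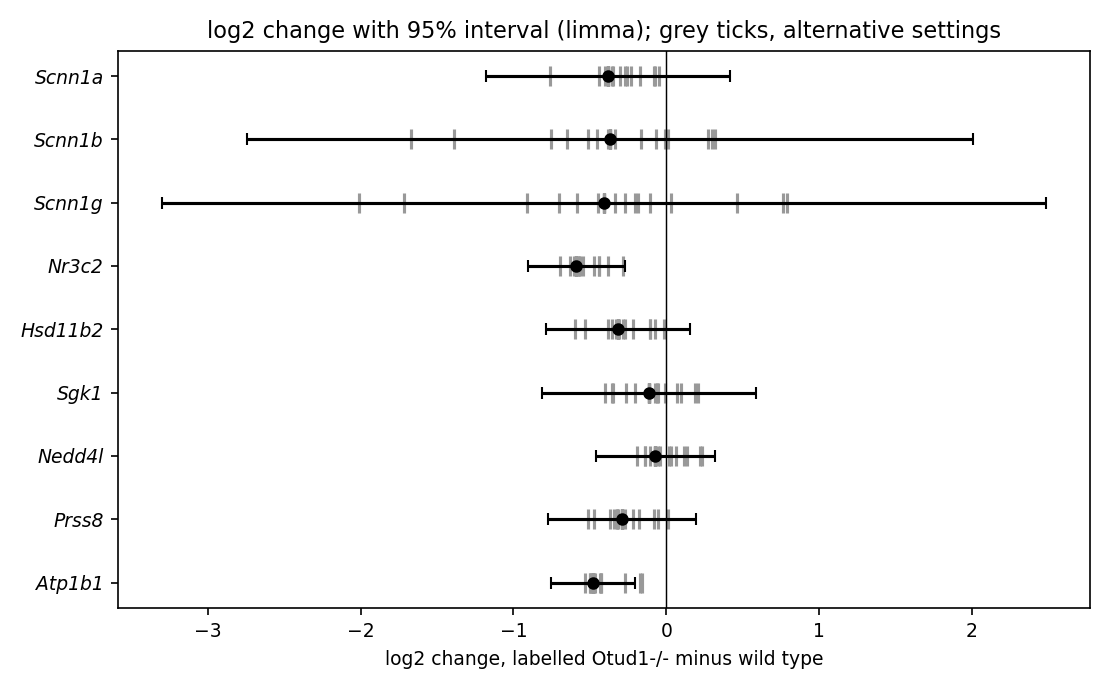
Black points and bars give the log2 change (x axis, labelled Otud1-/- minus wild type) of each gene with its 95% interval from limma, and grey ticks give the value under each alternative. The intervals of Nr3c2 (-0.91 to -0.27) and Atp1b1 (-0.75 to -0.20), which are not adjusted for the number of genes, lie below 0, and the ticks of Scnn1b and Scnn1g spread to both sides of 0.

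Set against the epithelium in the same library, no member passed a test between genotypes, where the smallest p possible is 0.1. The differences, from 9 exact two-sided permutation tests, ran from -0.29 for Nr3c2 to 0.23 for Nedd4l on the log2 scale, and each had an adjusted p of 1. Scnn1b (-7.11 ± 0.57 SD, n = 3, against -7.17 ± 1.97 SD, n = 3) and Scnn1g (-8.66 ± 0.48 against -8.77 ± 2.49) kept their wide spread in Otud1-/-, with Otud1-/- 1 highest. Their differences of -0.07 and -0.10 became -1.17 and -1.50 without Otud1-/- 1, and 0.72 and 0.91 without Otud1-/- 2. With the surface colonocyte list as reference all 9 differences were positive, from 0.03 for Nr3c2 to 0.55 for Nedd4l, and 6 of them had turned sign. The scatter of these genes was also present relative to the epithelial markers.

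Per kilobase of exon, Atp1b1 was the most abundant member, with 4724 to 7504 normalised reads per kilobase over the 6 libraries. Hsd11b2 followed (1395 to 2669), and neither overlapped its neighbour in this order. Sgk1 (346 to 746), Scnn1a (319.7 to 823) and Prss8 (265 to 524) came next with overlapping ranges, and Nr3c2 (155 to 294) overlapped Prss8. Nedd4l (70.3 to 111), Scnn1b (15.4 to 157) and Scnn1g (3.01 to 68.2) were lowest, and their ranges overlapped in turn. Scnn1a lay above Scnn1b, and Scnn1b above Scnn1g, in every library, whereas Nr3c2 and Scnn1b were nearly level in Otud1-/- 1 (155 and 157). These lengths merge all annotated exons of a gene, and coding lengths differ from them unevenly. Exon and coding lengths were 17659 and 3123 bp for Nedd4l, 6474 and 2952 for Nr3c2, and 2633 and 1960 for Scnn1b. The low place of Nedd4l and the nearness of Nr3c2 to Scnn1b are therefore given for exon length, and the members were not ranked by coding length.

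The genes most like each subunit were sought among 12399 named genes with a mean of at least 50, by Pearson r of log2 levels over the 6 libraries. For Scnn1a these were Pdlim2 (0.998), Nudt4 (0.997) and Pgm2 (0.997), and 117 genes reached an r of 0.95. For Scnn1b they were Taf6, a subunit of a general transcription factor (0.990), Scnn1g (0.983) and Sipa1l2 (0.982), with 31 genes at 0.95 or above. For Scnn1g they were Sipa1l2 (0.992), Wls, which carries Wnt proteins to the cell surface (0.989), and Slc11a2, an iron transporter (0.987), with 40 genes at 0.95 or above. The 6 points share their genotype labels and scaling, so these values describe likeness in this set of libraries only.

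Of 36 other genes of the pathway, 1 passed the test. Atp12a, which encodes the aldosterone-responsive colonic proton-potassium pump, was called lower in Otud1-/-, though not under every alternative. It had 3658, 5482 and 5925 normalised reads in wild type and 2199, 2447 and 1843 in Otud1-/-, with no overlap. Its log2 change was -1.19 ± 0.19 SE, with a 95% interval of -1.63 to -0.76 (limma, adjusted p = 0.0362). Its adjusted p ranged from 6.07e-06 with DESeq2 to 0.174 with limma without trend and robust, and the call was lost without wild type 2 (0.14) or 3 (0.164), without Otud1-/- 1 (0.0634) or 3 (0.0787), with edgeR (0.0565) and after quantile normalisation (0.0602). With the replicate number as a block Atp12a was not called either. Without both wild type 1 and Otud1-/- 1 the call held (limma, adjusted p = 0.00156). The antisense gene Gm10873 shares 13.9% of the exon bases of Atp12a. In the list as a whole 0 were higher and 1 lower, beside 0.282% and 0.667% of tested genes, with a median of -0.22. At an unadjusted p under 0.05 there were 15 of 36, 12 of them lower, beside 19.5% of all tested genes, 9.97% being lower. edgeR called 0 of the 36 (15 at an unadjusted p under 0.05, beside 22.6% of its genes). DESeq2 called 5, all lower, where it called 8.4% of its 16803 genes, 743 as lower and 669 as higher.

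Described by role, 0 of 14 kinase, scaffold and trafficking genes passed. Ndfip1, an adaptor of NEDD4-family ligases, averaged 1770.5 ± 56.9 (SD, n = 3) in wild type and 1341 ± 38.2 (SD, n = 3) in Otud1-/- (limma, adjusted p = 0.0868). Usp2, a deubiquitinase that acts on the channel, averaged 418 ± 118 against 205 ± 66.8 (limma, adjusted p = 0.112). Of 7 corticosteroid receptor, enzyme and target genes 0 passed. The glucocorticoid receptor gene Nr3c1 had a log2 change of -0.38 ± 0.15 SE (limma, adjusted p = 0.206) and the glucocorticoid-induced Tsc22d3 of -0.45 ± 0.20 SE (limma, adjusted p = 0.251), with 3 of the 7 estimates positive. The positive estimates were those of the target genes Fkbp5 (0.29), Klf9 (0.10) and Zbtb16 (0.18), which are given here because of their sign. Per1, another target gene of the list, was negative like Tsc22d3, at -0.33 (limma, adjusted p = 0.324).

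Among 6 genes of channel-cleaving proteases and their inhibitors, 0 passed, while in 4 the genotypes did not overlap, all lower in Otud1-/-, where 13.3% of tested genes did so. The median of the 6 was -0.42, beside -0.44 for the 14 epithelium markers, of which 7 were lower without overlap, and the part of epithelial content in it was not tested. Tmprss4, a transmembrane serine protease gene, had 4157, 4235 and 4872 normalised reads in wild type and 3039, 3109 and 3121 in Otud1-/- (log2 change -0.51 ± 0.11 SE, limma, adjusted p = 0.0635). Tmprss2 had a log2 change of -0.47 ± 0.13 SE (limma, adjusted p = 0.106). Of 5 sodium pump and FXYD genes 0 passed. Fxyd5, a regulator of the pump, stood at -0.58 ± 0.20 SE (limma, adjusted p = 0.168). The potassium channel gene Kcnma1, also made by smooth muscle, was at 0.59 ± 0.20 SE (limma, adjusted p = 0.163). All 8 smooth muscle markers were higher in every Otud1-/- library, beside 13% of tested genes. Of the 8, 3 were called, beside 0.282% of tested genes called higher. The part of smooth muscle in the level of Kcnma1 was not tested.

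Fxyd4, a colonic regulator of the pump that corticosteroids induce, resembled Scnn1b and Scnn1g and is named after its values were seen. It had 55.9, 120.4 and 168 normalised reads in wild type and 852, 34.9 and 115 in Otud1-/-, with Otud1-/- 1 highest and Otud1-/- 2 lowest as for both subunits. Its log2 change was 0.53 ± 1.26 SE (limma, adjusted p = 0.86).

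**Figure D5:**
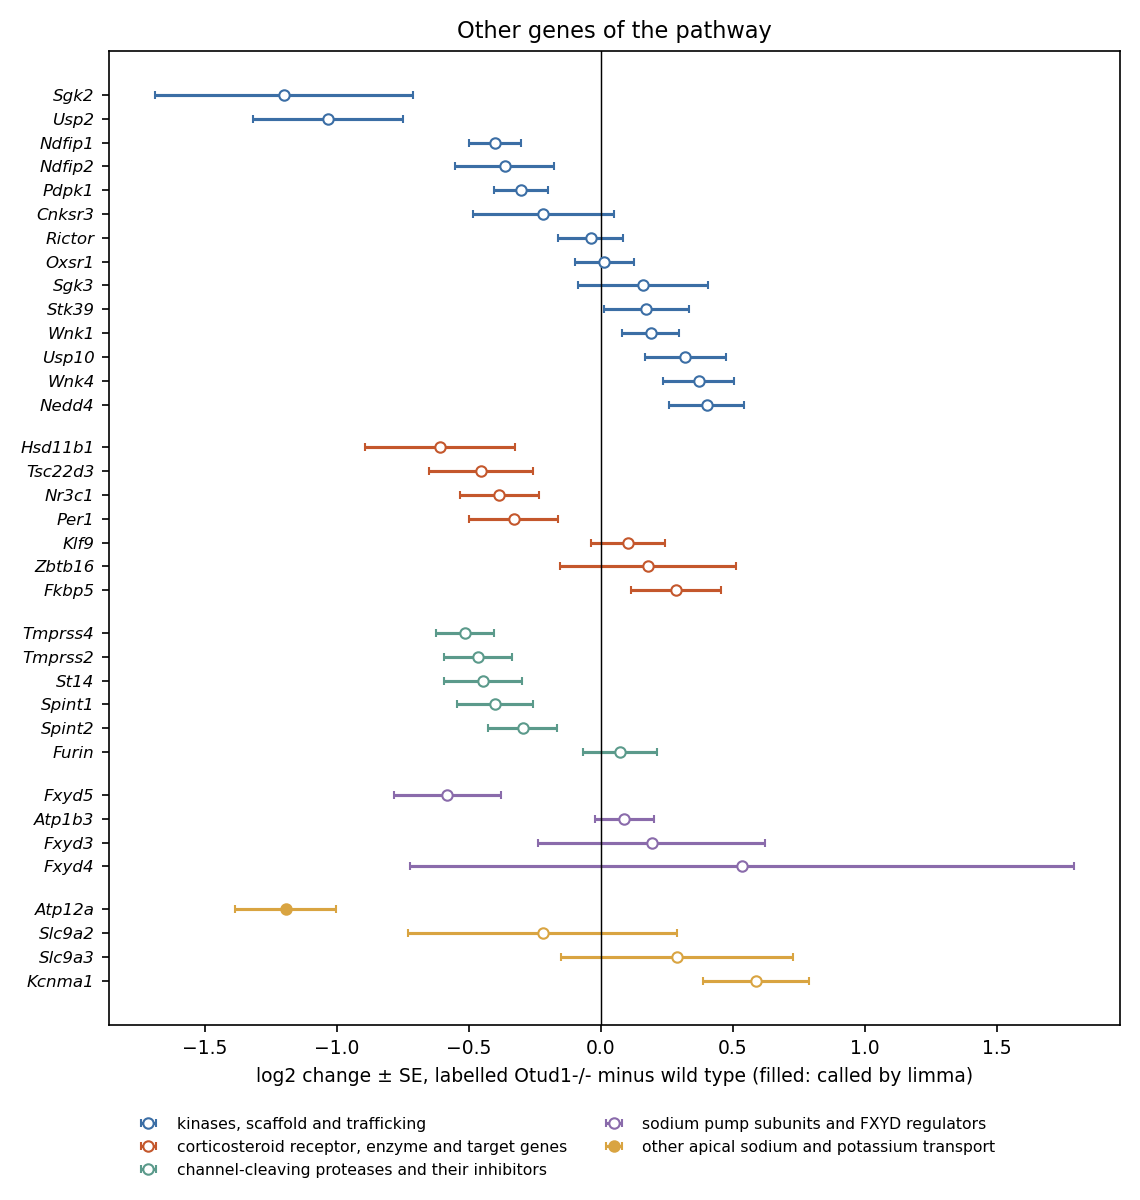
Log2 changes (x axis, labelled Otud1-/- minus wild type) of 35 of the 36 other pathway genes, coloured by role, with limma's SE as bars; a filled point passed the test. Atp12a (-1.19) is the 1 filled point, and the widest bar is that of Fxyd4 (SE 1.26).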

How the data were processed

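RNA-seq of 6 libraries of tumour-adjacent distal colon was analysed. The deposited unit is a normalised signal per gene; per the submitters' processing notes, the authors used mm10. Aligner, counter and strand setting: not given in the sources used here. Dividing by 1 step per library gave whole reads (100% of values, tolerance 0.001 of a read), and the steps equal the reciprocals of median-of-ratios size factors, so the signal is called a normalised read count and reads were recovered. IDs were matched to GENCODE vM21 without version (21336 of 21374), which gave symbols, GRCm38 coordinates and merged exon lengths. Promoters are from RefSeq (GRCm38.p6).

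Genes with a value of at least 1 in at least 3 libraries (21281, all 9 members among them) were tested with limma 3.58.1 (R 4.3.3, eBayes with trend and robust) on log2(value + 1), two-sided, with Benjamini-Hochberg adjustment over all tested genes and a threshold of 0.05. Fold changes on this scale understate changes of low genes. Alternatives were other filters, pseudocounts, scalings and variance models, the replicate number as a block, edgeR 4.0.16 and DESeq2 1.42.0 on the recovered reads, and the omission of libraries. The fits were tested on simulated data. The members, lists and tests were chosen with earlier results of these data known. Named pathway genes were those called and otherwise the 2 of each role with the smallest p; 1 gene of that list, counted in its totals, is not reported here. The labels do not say that replicate numbers pair libraries, and the main fit took the libraries as unpaired.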

Additional observations from a re-analysis of the deposited data

How the results depend on the processing

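The 3 libraries per genotype and the few reads of Scnn1b and Scnn1g limit what could be detected. The count of members called, 0, was 1 with sample weights, 2 with DESeq2 and 2 without wild type 1 and Otud1-/- 1 together, and 0 to 2 without single libraries. The 2 were Scnn1a (-0.76) and Nr3c2 (-0.70), both without Otud1-/- 2. Without 1 library the changes ranged from -0.76 to -0.0796 for Scnn1a, from -1.39 to 0.27 for Scnn1b, from -1.72 to 0.46 for Scnn1g and from -0.70 to -0.44 for Nr3c2. They ranged from -0.35 to 0.21 for Sgk1 and from -0.19 to 0.12 for Nedd4l. Without wild type 1 and Otud1-/- 1, Scnn1b was at -1.67 and Scnn1g at -2.01, both called, and Nedd4l at 0.22. With edgeR, Scnn1b was at 0.32 and Scnn1g at 0.79, and with DESeq2 at 0.30 and 0.765, where Nr3c2 (-0.57) and Atp1b1 (-0.48) were called. With sample weights Nr3c2 was called at -0.55 and Nedd4l was at 0.0192. Quantile normalisation put Sgk1 at 0.068 and Nedd4l at 0.0614, total-read scaling at 0.0933 and 0.14, and epithelium-list scaling at 0.19 and 0.23, with Prss8 at 0.0135. The causes were not tested beyond the leaving out of libraries. The log2 change of Hsd11b2 ranged from -0.59 to -0.0129 and was not called under any alternative of that fit. Its level relative to the epithelium list (-0.0128) turned to 0.34 without Otud1-/- 2.

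Over all genes 202 were called. The count was 122 with a mean of at least 5, 118 with a pseudocount of 0.1, 413 with total-read scaling, 965 with epithelium-list scaling, 0 with limma without trend and robust (3499 at an unadjusted p under 0.05), 564 with sample weights, 62 with edgeR, 1412 with DESeq2, 393 without wild type 1 and Otud1-/- 1, and 10 to 351 without single libraries (10 without wild type 3, 351 without Otud1-/- 2). The share of lower genes was 70.3%, and 60.1% by quantiles, 24.9% with total-read and 13.7% with epithelium-list scaling. The last 2 moved the median of all genes from 0.02 to 0.22 and 0.31. Of the other pathway genes 1 was called. The count was 0 after quantile normalisation, with limma without trend and robust and with edgeR, 2 with epithelium-list scaling (Nedd4 higher besides Atp12a), 3 with sample weights, 5 with DESeq2 and 0 to 1 without single libraries. With the surface colonocyte list as reference in place of the epithelium list, the difference of Nr3c2 turned positive (0.03). Those of Scnn1a (0.24), Scnn1b (0.25), Scnn1g (0.21), Hsd11b2 (0.31) and Atp1b1 (0.14) also turned positive. That of Nedd4l was positive with either reference, and 0.55 with the surface colonocyte list.

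With the replicate number as a block, 18 genes, 0 members and 0 other pathway genes were called. Same-numbered libraries did not deviate together from their group means (correlations of -0.264, -0.100 and -0.0877 for numbers 1, 2 and 3). Each group mean rests on 3 libraries, and wild type 1 and Otud1-/- 1 lay at opposite ends of the first component. These values therefore cannot show whether same-numbered libraries shared a cage, litter or batch.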

Other observations

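The sodium-hydrogen exchangers, which carry electroneutral sodium uptake in surface epithelium, scattered among the Otud1-/- libraries in the way Scnn1a did. Slc9a3 had 7212, 4802 and 4906 normalised reads in wild type and 3769, 12016 and 6839 in Otud1-/-, with Otud1-/- 1 lowest and Otud1-/- 2 highest of all 6. Slc9a2 had 3689, 2198 and 2810.3 in wild type and 1235, 4564 and 2559 in Otud1-/-, again with these libraries at the ends. Neither passed the test (limma, adjusted p = 0.768 and 0.857). Sgk2, a kinase related to Sgk1, had 2430.2, 1979.7 and 2213 in wild type and 445, 1566 and 1256 in Otud1-/-. Its groups did not overlap, and its log2 change of -1.20 ± 0.49 SE did not pass (limma, adjusted p = 0.264). These genes are named after their values were seen.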
